A study of Mus musculus with 7 samples.

Results

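The comparison is of mammary glands lacking estrogen receptor α (αERKO) with wild-type (WT) glands exposed to a carcinogen, both after 24 days of organ culture, and it rests on 2 of the 7 arrays of the series. The series measured mRNA of whole mouse mammary glands kept in serum-free medium, to ask what each estrogen receptor contributes to gland development and to the lesions that a carcinogen induces. RNA was hybridized to CodeLink Mouse Whole Genome arrays, which are 1-colour oligonucleotide arrays, with 1 array per group. The members were chosen by their labels: the array of Esr1 knockout glands, genotype αERKO on a C57BL6/129SV background, and the array of C57 wild-type glands with DMBA. Each array holds a pool of RNA from 5 mice, combined in equal mass, so the spread between mice was not measured. The glands came from females aged 4 weeks. The labels give a growth phase of 10 days with insulin, prolactin, aldosterone and hydrocortisone, then a regression phase of 14 days with insulin alone. DMBA (7,12-dimethylbenz[a]anthracene), a polycyclic aromatic hydrocarbon carcinogen, is given at 2 µg/ml for 24 h on day 3; the title of the αERKO array does not name it, while that of the WT array does, and the study describes the cultures of both genotypes as exposed to carcinogen. The mice of both genotypes are described in the study as pretreated with EGF and progesterone, which the labels give as 25 ng and 1 mg over 5 days. The labels also name a pretreatment with estrogen (1 µg) plus progesterone (1 mg) over 9 days for the organ culture in general. By the study's methods the WT glands held carcinogen-induced lesions and the αERKO glands held none, for which reason they also say that no αERKO sample could be taken for molecular work. Genotype therefore goes with strain background and with the presence of lesions, and these cannot be told apart.

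The other 4 wild-type arrays serve to show how far glands with an intact receptor differ from each other. They hold C57 glands never given DMBA, after 24 and after 10 days, and 24-day BALB/c glands without and with vitamin D5; the BALB/c titles do not name DMBA. They differ in strain, time and treatment and are not replicates, so the "wild-type range" below is the lowest to the highest of the 5 wild-type arrays, with no SD. Where values of the 5 arrays are listed, the order is WT with DMBA, WT 24 days without DMBA, WT 10 days without DMBA, BALB/c, and BALB/c with vitamin D5; some of these spots were not called good by the scanner software.

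The mammary gland is a branched epithelium of inner luminal and outer basal (myoepithelial) cells within a fat pad of adipocytes, fibroblasts, vessels and immune cells. Estrogen receptor α is a ligand-activated transcription factor of some luminal cells, which relay the signal to their neighbours through secreted ligands such as amphiregulin. Without it the ductal tree stays rudimentary, while prolactin and glucocorticoid drive secretory differentiation of the ducts and alveoli that are present. After EGF and progesterone, however, the study reports that ducts also expanded through the fat pad of αERKO mice, less prominently than in WT mice.

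Values are normalized intensities, each a probe's background-subtracted intensity relative to the median gene probe on the same array, so that 1 is that median. A gene was taken as measured where the scanner software called its spot good on both arrays, and "rose" and "fell" are used for differences of more than 2-fold on the αERKO array relative to WT with DMBA. Of 22065 probes good on both arrays, 1787 were higher (8.10%) and 2129 were lower (9.65%) by more than 2-fold. Of 10575 named genes, 831 rose (7.86%) and 1330 fell (12.6%), with a median log2 ratio of -0.15, and these shares are the background for the counts of each gene group. The WT array with DMBA differed by more than 2-fold from the other wild-type arrays at 10.8% (10 days), 11.8% (24 days without DMBA), 13.4% (BALB/c) and 13.2% (BALB/c with vitamin D5) of probes, against 17.7% for the αERKO array (20.4% of named genes). Of 9419 genes good on the αERKO array and all 5 wild-type arrays, 2058 lay above the wild-type range (21.8%) and 4045 below it (42.9%); over probes these shares were 23.1% and 40.0%. The share of changed probes that were higher was 45.6%, and it was 49.5% with quantile normalization, 56.7% with scaling to the 75th percentile, 56.9% with cyclic loess and 34.1% with normexp background correction, so the balance of rises and falls depends on the scaling. The αERKO array had the lowest median intensity of the 7 (39.1, against 51.5 for WT with DMBA) over an equal local background of 81. Skeletal muscle genes were also high on it: 51 of 73 measured genes of a muscle list rose, 4 fell, and their summed level was 4448 against 236 to 449 on the wild-type arrays. The list took 1.49% of the signal of gene probes on the αERKO array and at most 0.154% on a wild-type array. The part that muscle tissue in the sample played in the changes below was not tested.

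The deleted gene, Esr1, was near background on the αERKO array at 0.0737. The 5 wild-type arrays read 0.494, 0.0641, 0.00143, 0.15 and 0.6, and only WT with DMBA and BALB/c with vitamin D5 were called good. The probe is too dim to check the genotype beyond this, and gives a bound of at least 1.36-fold lower than WT with DMBA. Esr2, encoding estrogen receptor β, was near background on both arrays (0.313 and 0.017). Pgr, the progesterone receptor and a classical estrogen target, was 1.94 on the αERKO array and 1.61, 0.983, 0.615, 0.88 and 0.785 on the wild-type arrays. It was thus the highest of the 6, with a log2 ratio of 0.26 to WT with DMBA. Gper1, a membrane estrogen receptor also called GPR30, was likewise above the wild-type range at 1.32 against 0.682 to 1.08, a log2 ratio of 0.29. Neither passed 2-fold. No probe was named Greb1. Of 13 measured hormone and growth factor receptors none rose and 2 fell, with a median of -0.11: Fgfr1, a fibroblast growth factor receptor, at 2.21 against 6.94, and Ddr1, a collagen receptor of epithelial cells, at 1.21 against 2.71.

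The ligands that carry hormone signals between epithelial cells moved separately. Areg, amphiregulin, an EGF receptor ligand induced by estrogen, was 6.16 on the αERKO array and 7.16, 12.6, 8.91, 5.10 and 10.2 on the wild-type arrays, within their range. Tnfsf11, RANK ligand, which relays the progesterone signal, was 2.59 against 40.0 on WT with DMBA, a log2 ratio of -3.95. The other 4 wild-type arrays read 5.46, 0.207, 0.385 and 0.219, so the WT array with DMBA stood apart there and the αERKO value lay inside the range. Wnt4, a further progesterone-induced ligand, was 6.30 against 5.33. Pthlh, parathyroid hormone-related protein, fell to 0.71, below the wild-type range of 2.35 to 10.8. Tgfb1, an inhibitor of ductal growth, also fell, to 6.18 against 17.7, just below the lowest wild-type value of 6.39. Igf2, an insulin-like growth factor, rose to 4.53 from 1.10. Of the 19 measured ligands 2 rose and 3 fell, with a median of -0.10.

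Estrogen-responsive genes as a list did not move one way. Of 29 measured, 4 rose and 4 fell, the median was 0.11, and against the other 4 wild-type arrays it was -0.01 to 0.07. Those that fell included Nrip1, a nuclear receptor corepressor (6.79 against 25.2), Myc, a growth-promoting transcription factor (5.71 against 14.5), and Slc7a5, an amino acid transporter (0.471 against 1.52). All 3 lay below the wild-type range. Those that rose included Igfbp4, an IGF-binding protein (19.7 against 3.74), and Cxcl12, a chemokine of stromal cells (7.40 against 3.06), both above the wild-type range. The RefSeq promoter windows (GRCm38.p6, 250 bases before to 50 after the start) of 28 genes of the list were searched on both strands for the palindromic estrogen response element GGTCANNNTGACC. It was in none of them and in 20 of 27025 windows overall (0.074%). With up to 1 mismatch it was in 0 of 28 and in 0.995% of all windows. A motif this rare would be missing from most sets of 28 windows, so the search says nothing about the list.

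**Figure D1:**
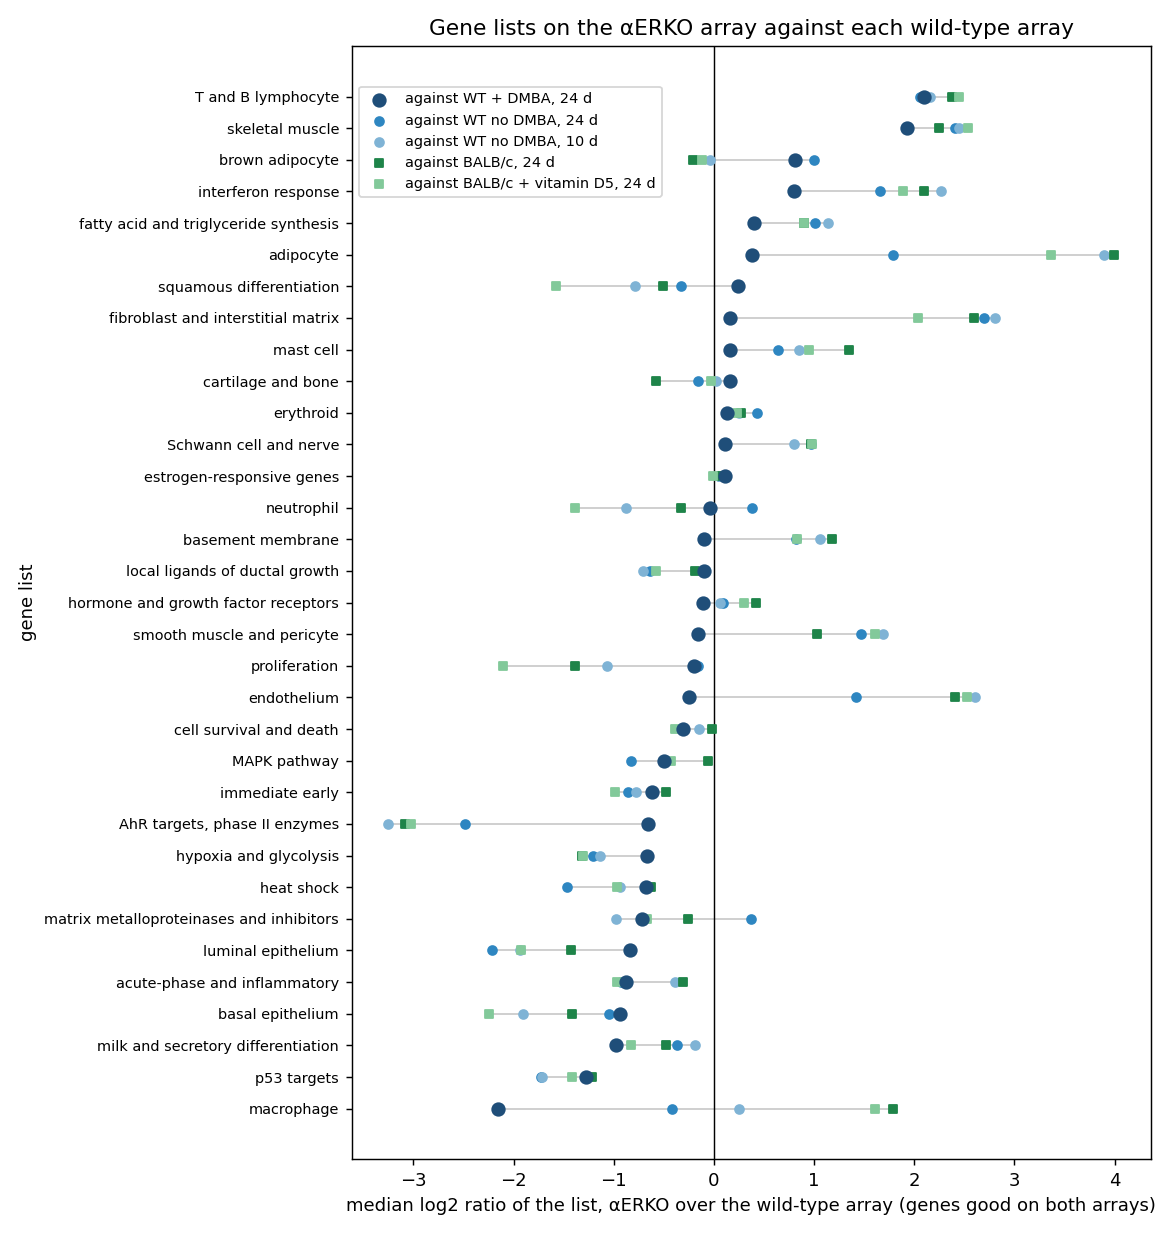
Median log2 ratio of each gene list, αERKO over each wild-type array (horizontal axis; genes good on both arrays), with 1 row per list and 1 point per wild-type array. Luminal epithelial genes lie between -2.22 and -0.84 and lymphocyte genes between 2.06 and 2.44 whichever wild-type array is the reference, whereas the adipocyte, fibroblast, endothelial and macrophage medians depend on it, from 0.38 to 4.00 for adipocyte genes.

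Epithelial genes were lower on the αERKO array than on any wild-type array for most of both layers. In bulk tissue, fewer cells of a type and less RNA per cell cannot be told apart. Of the 29 measured luminal genes 13 fell and 1 rose, with a median of -0.84; 21 lay below the wild-type range and 3 above. Krt8, a luminal keratin, was 7.77 on the αERKO array and 24.4, 50.04, 31.8, 18.2 and 36.9 on the wild-type arrays. Esrp1, the splicing regulator of epithelial cells, was 1.78 against 53.5, 81.1, 107, 111 and 120.2, a log2 ratio of -4.91. Its probe was also low on the array labelled estrogen receptor β knockout (βERKO), with a log2 ratio of -4.44 to WT with DMBA. Muc1, an apical mucin, was 4.34 against 31.0, 30.1, 34.05, 37.2 and 44.9. For these 3 genes the αERKO value was under every wild-type value. Ehf, an epithelial transcription factor, St14, a membrane serine protease, and Marveld3, a tight junction protein, fell as well, with log2 ratios of -1.91, -1.79 and -2.02. Of the list 15 genes passed 2-fold in neither direction. Krt18, the keratin that pairs with Krt8, was 166 against 172 on WT with DMBA and 356 to 386 on the other 4 wild-type arrays, so it was also below the wild-type range. Krt19 was 118 against 103, within the range. The transcription factors Gata3 and Foxa1, which mark luminal cells that sense hormone, were 33.2 against 30.4 and 5.03 against 4.92, both above the range. The gene that rose was Cited1, a coactivator of estrogen receptor α, to 11.7 from 5.25.

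The basal layer showed the same order. Of 13 measured basal genes 6 fell and none rose, with a median of -0.94, and 11 of 12 lay below the wild-type range. Krt14, a basal keratin, was 6.81 on the αERKO array against 36.6, 89.2, 223, 154 and 256. Krt17 was 0.502 against 3.76, 16.0, 39.2, 24.6 and 59.9, a log2 ratio of -2.91 to WT with DMBA. Krt5 was 35.9 against 86.4, 135, 418, 346 and 453. On each of these 3 probes WT with DMBA was itself the lowest wild-type array. Trp63, encoding the basal lineage factor p63, was 5.29 against 7.49 to 25.3, Itgb4, an integrin of hemidesmosomes, 2.23 against 7.72 to 28.1, and Sfn, 14-3-3σ, 25.8 against 67.0 to 252. The median of the list against the other 4 wild-type arrays was -2.25 to -1.05, and that of the luminal list -2.22 to -1.43. The summed level of the luminal list was 946 on the αERKO array and 1291 to 2449 on the wild-type arrays, and that of the basal list 102 against 242 to 1123.

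**Figure D2:**
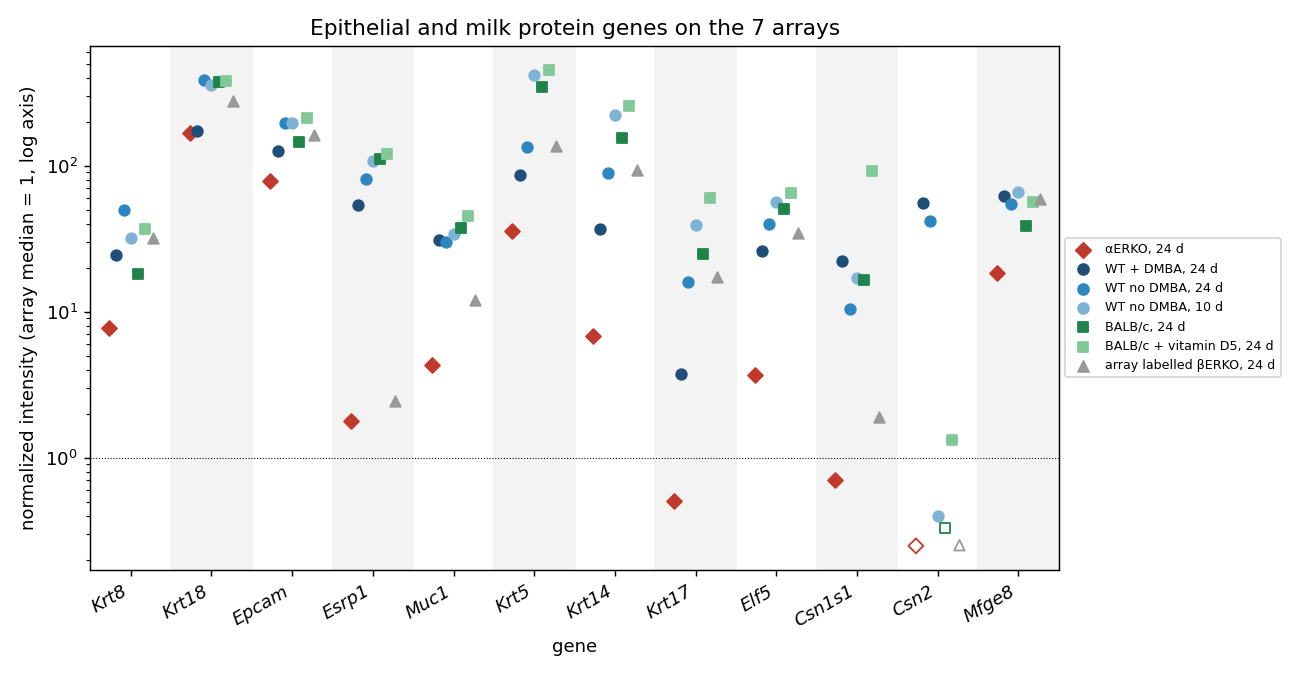
Normalized intensity (vertical, log axis, array median = 1) of epithelial and milk protein genes on the 7 arrays; each point is 1 array, and open points were not called good. The αERKO points lie below all 5 wild-type points for Krt8, Krt14, Krt17 and Krt18, and for Krt18 the gap to WT with DMBA is small (166 against 172).

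Milk genes were divided. Of 15 measured genes 7 fell and 2 rose, 6 passed in neither direction, and the median was -0.98. Against the other 4 wild-type arrays the median was -0.83 to -0.19, and 8 of 15 genes lay below the wild-type range, as did 42.9% of all genes. A further 4 genes were good on WT with DMBA and near background on the αERKO array. Csn2, β-casein, was near background at 0.249, and read 55.3, 41.9, 0.396, 0.329 and 1.32 on the wild-type arrays. It was at least 153-fold lower than in WT with DMBA, while BALB/c glands and 10-day C57 glands were nearly as low, so wild-type glands spanned almost the whole difference. Csn1s1, αs1-casein, was 0.699 against 22.2, 10.5, 17.0, 16.4 and 91.4, and Csn1s2a, a further casein, 0.855 against 24.2, 10.8, 1.62, 2.70 and 4.35. Both lay below every wild-type array. On the βERKO-labelled array they were low too, with log2 ratios to WT with DMBA of -3.55 for Csn1s1 and -3.88 for Csn1s2a. Csn1s1 was below the wild-type range there and Csn1s2a within it. Elf5, the transcription factor of alveolar progenitors, was 3.69 against 25.8, 39.7, 56.3, 50.6 and 64.6. Plin2, which coats lipid droplets, was 38.2 against 191 to 407. The genes that rose were Ltf, lactoferrin (24.9 against 11.3, within the wild-type range), and Glycam1, a mucin both of milk and of lymph node vessels, which was 72.2 against 0.411 to 3.09.

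The difference in proliferation genes depended on the wild-type array. Against WT with DMBA none of 22 measured genes passed 2-fold, and the median was -0.20; 6 were good on WT with DMBA only. Against WT at 24 days without DMBA the median was -0.16. Of 21 genes 3 were more than 2-fold higher and 1 was lower, against 12.5% and 22.4% of all named genes. Against the 10-day, BALB/c and vitamin D5 arrays the medians were -1.07, -1.39 and -2.11, and 14 of 22, 15 of 21 and 18 of 21 genes were more than 2-fold lower. Of all named genes 18.1%, 11.5% and 16.5% were lower against these arrays. Below the wild-type range lay 11 of 21, not far from the share over all genes (42.9%). Top2a, a topoisomerase of dividing cells, was 0.949 on the αERKO array and 1.18, 0.562, 3.18, 4.12 and 6.96 on the wild-type arrays. The αERKO array and both 24-day C57 arrays were low, and the 10-day and BALB/c arrays were higher. Tyms, thymidylate synthase, was 7.41 against 12.1 to 31.8.

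Antioxidant and xenobiotic enzymes were lower on the αERKO array than on every wild-type array for most of their list. The aryl hydrocarbon receptor, which DMBA binds, induces Cyp1 enzymes that activate the carcinogen, and the factor NRF2 induces phase II enzymes that detoxify it through the antioxidant response element. Promoter windows of 3 genes that fell are shown because they hold the core of that element, TGACNNNGC or TGAGNNNGC, on either strand (RefSeq, GRCm38.p6, plus strand). Capitals mark the matches. Gclm, the regulatory subunit of glutathione synthesis, lies at chr3:122245307-122245606, Txnrd1, thioredoxin reductase, at chr10:82858956-82859255, and Srxn1, sulfiredoxin, at chr2:152105274-152105573.
Gclm: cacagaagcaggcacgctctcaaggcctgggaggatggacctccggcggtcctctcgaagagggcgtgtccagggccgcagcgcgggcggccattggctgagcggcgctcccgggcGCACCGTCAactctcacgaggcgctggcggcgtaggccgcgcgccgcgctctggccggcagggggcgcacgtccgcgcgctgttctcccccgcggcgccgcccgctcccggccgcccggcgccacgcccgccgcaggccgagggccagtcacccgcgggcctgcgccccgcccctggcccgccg
Txnrd1: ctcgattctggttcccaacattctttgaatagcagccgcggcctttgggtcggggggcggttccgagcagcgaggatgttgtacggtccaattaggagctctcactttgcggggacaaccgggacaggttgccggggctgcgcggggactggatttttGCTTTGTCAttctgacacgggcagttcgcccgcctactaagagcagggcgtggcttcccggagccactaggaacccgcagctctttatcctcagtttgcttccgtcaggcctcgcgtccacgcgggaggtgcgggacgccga
Srxn1: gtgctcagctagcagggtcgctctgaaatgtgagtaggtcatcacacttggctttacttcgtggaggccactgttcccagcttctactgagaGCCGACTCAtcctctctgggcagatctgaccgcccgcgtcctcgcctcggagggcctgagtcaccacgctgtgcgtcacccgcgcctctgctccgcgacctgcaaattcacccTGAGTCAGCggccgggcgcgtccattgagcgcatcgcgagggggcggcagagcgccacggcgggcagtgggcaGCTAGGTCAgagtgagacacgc
The core was in 9 of 20 windows of the list (45%), in 3 of 8 of its genes that fell and in 30.8% of all windows; the motif is short, and a match is not a bound site.

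Of 23 measured genes of this list 10 fell and 1 rose, with a median of -0.66. Against the other 4 wild-type arrays the median was -3.25 to -2.48, and 17 of 22 lay below the wild-type range. Nqo1, a quinone reductase, was 1.38 on the αERKO array against 20.3, 68.3, 119, 83.4 and 102. Hmox1, heme oxygenase 1, was 6.16 against 159.8, 559, 371, 336 and 230.1. Gpx2, a glutathione peroxidase of epithelia, was 0.97 against 39.2, 219, 272, 243 and 228. WT with DMBA had the lowest wild-type value of each, and the αERKO array was lower again by a log2 ratio of -3.88, -4.70 and -5.34. Cyp1b1, the DMBA-activating cytochrome, was 4.38 against 33.3, 49.9, 178, 109 and 157. Gclm was 7.39 against 72.4 to 233, Srxn1 1.92 against 15.3 to 81.1, and Txnrd1 4.42 against 23.1 to 64.3. Cyp1a1 was 1.39 against 0.866 and did not pass 2-fold. Nor did Cyp1a2, Tiparp and Ahrr, further aryl hydrocarbon receptor targets of the list, with log2 ratios of 0.33, 0.05 and -0.23. The gene that rose was Gstt1, a glutathione transferase, at 30.6 against 2.42 to 5.21.

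**Figure D3:**
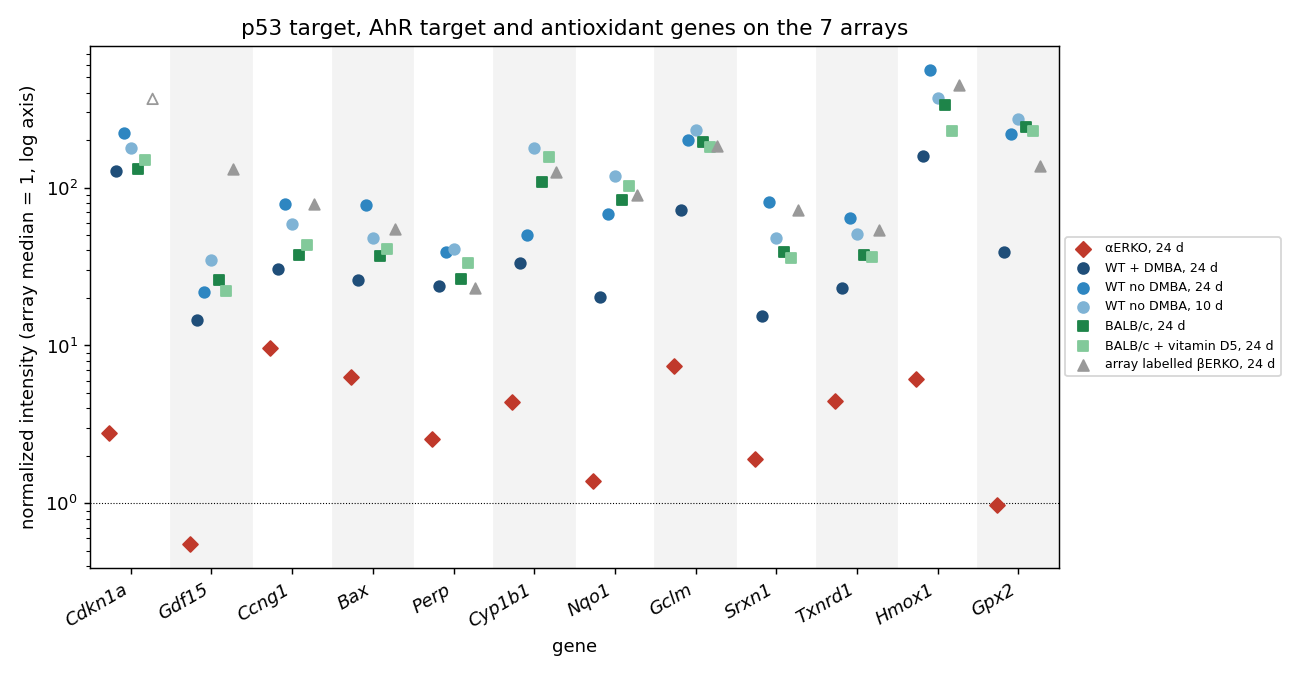
Normalized intensity (vertical, log axis, array median = 1) of p53 target, aryl hydrocarbon receptor target and antioxidant genes on the 7 arrays; each point is 1 array, and open points were not called good. The αERKO point is below all 5 wild-type points for every gene drawn, for example 2.79 against 127 to 222 for Cdkn1a.

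Targets of the damage sensor p53 fell more often than they rose. Of 21 measured genes 12 fell and 1 rose, with a median of -1.28, and 15 of 21 lay below the wild-type range. Cdkn1a, the cell cycle inhibitor p21, was 2.79 on the αERKO array against 127, 222, 177, 131 and 150.4, a log2 ratio of -5.51. Gdf15, a stress-induced cytokine, was 0.551 against 14.5, 21.8, 34.7, 26.0 and 22.2. Bax, a pro-apoptotic pore protein, was 6.30 against 26.1, 77.6, 48.02, 37.1 and 40.7. The wild-type arrays without DMBA in their title were not lower than WT with DMBA on these probes. Perp, a desmosomal p53 target, Btg2, an antiproliferative factor, and Ccng1, cyclin G1, had log2 ratios of -3.22, -2.44 and -1.66. Mdm2, which degrades p53, was at least 3.01-fold lower, being near background in αERKO. Ddit4l was the gene that rose, at 13.4 against 4.35, within the wild-type range.

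Acute-phase and inflammatory genes included Saa3, the largest fall among the genes named here by rank. Of 17 measured genes 8 fell and 1 rose, with a median of -0.88, and 9 others were good on WT with DMBA only. Against the other 4 wild-type arrays the median was -0.97 to -0.31, and the list was more divided. Of 15 to 17 measured genes, 4 or 5 were more than 2-fold higher and 4 to 6 lower. Over all named genes, 12.5% to 14.9% were higher and 11.5% to 22.4% lower against these arrays. Saa3, a serum amyloid A protein made in the gland, was 0.847 on the αERKO array against 109, 21.2, 93.2, 137 and 261, a log2 ratio of -7.00. Saa1 and Saa2 were near background there and at least 57.9-fold and 12.6-fold lower. Chil1, a chitinase-like protein, was 0.986 against 19.4, 24.8, 104, 125 and 237. Cxcl1, a neutrophil chemokine, was 1.07 against 11.2, 34.8, 104, 65.1 and 146. Il1rn, the interleukin 1 receptor antagonist, was 0.805 against 1.58 to 9.68, and Orm2, orosomucoid 2, 1.04 against 1.37 to 10.97. In contrast Cfb, complement factor B, rose to 14.6 from 2.40.

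Chaperones and metabolic genes also fell more often than they rose, as did all named genes (12.6% fell and 7.86% rose). Of the chaperones 7 of 21 fell and 1 rose (median -0.68), and 16 of 21 lay below the wild-type range. Hspb1, a small heat shock protein, was 57.1 against 184, and Hspa1a, inducible Hsp70, 7.14 against 20.1. Cryab, αB-crystallin, which muscle also makes, rose to 35.0 from 10.8. Of the glycolysis and hypoxia genes 9 of 24 fell and 1 rose (median -0.66). Pgf, placental growth factor, was 1.01 against 8.88 to 18.7, Hk1, a hexokinase, 2.51 against 14.5 to 23.2, and Pkm, pyruvate kinase, 13.9 against 49.98 to 128. Vegfa was the gene that rose (16.6 against 7.45), but the other 4 wild-type arrays read 27.4 to 32.2.

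In the signalling and matrix-remodelling groups more genes fell than rose, which was also so over all named genes (12.6% fell and 7.86% rose). Of immediate early genes 9 of 21 fell and 1 rose (median -0.62). Klf6 was 0.932 against 13.9, 13.3, 15.4, 4.93 and 5.15, and Fosl1, an AP-1 subunit, was near background and at least 9.11-fold lower than in WT with DMBA. Klf2, a factor of endothelium and resting T cells, was the one that rose, to 119 from 43.8. Of MAPK pathway genes 9 of 39 fell and 3 rose (median -0.50). Mapk13, p38δ, was 3.81 against 16.3 to 33.8, and Mapk3, ERK1, 5.55 against 9.06 to 18.0. Of genes of cell survival and death 7 of 28 fell and none rose (median -0.31); Bak1, a pro-apoptotic pore protein, was 1.52 against 3.93 to 5.15. Of matrix metalloproteinases and their inhibitors 9 of 19 fell and none rose (median -0.72), a median that was 0.37 against WT at 24 days without DMBA. Timp1, a metalloproteinase inhibitor, was 1.45 on the αERKO array against 31.2, 4.18, 7.40, 5.60 and 13.0, and Plaur, the urokinase receptor, 2.34 against 10.9, 35.7, 21.6, 12.8 and 18.0.

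The stroma of the gland gave a result that depended on the wild-type array used. WT with DMBA held far more adipocyte, fibroblast, endothelial and macrophage signal than the other wild-type arrays, and the αERKO array was also above those others for the first 3. Of 21 measured adipocyte genes 6 rose and 2 fell, with a median of 0.38, and the median against the other 4 wild-type arrays was 1.79 to 4.00. Adipoq, adiponectin, was 654 on the αERKO array against 472, 265, 43.7, 25.3 and 6.55. Cfd, adipsin, was 682 against 167, 24.8, 2.52, 1.89 and 1.33, and Car3, a carbonic anhydrase of fat and muscle, 614 against 148, 53.6, 1.20, 0.22 and 0.168. Adipoq did not pass 2-fold against WT with DMBA, whereas Cfd and Car3 rose by log2 ratios of 2.03 and 2.05. Adrb3, the β3-adrenergic receptor, rose by 2.26 and Pck1, a glyceroneogenic enzyme, by 1.81, while Gpd1, glycerol 3-phosphate dehydrogenase, fell by 1.71 on the log2 scale.

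Fibroblast and matrix genes had a median of 0.16 against WT with DMBA and of 2.04 to 2.81 against the other 4 wild-type arrays; 7 of 27 rose and 5 fell. Col3a1, type III collagen, was 213 on the αERKO array against 115, 4.85, 2.57, 3.89 and 7.99. Dpt, dermatopontin, a matrix protein of quiescent fibroblasts, was 140.4 against 14.1, 2.12, 0.654, 1.25 and 1.57. Lox, lysyl oxidase, a collagen cross-linker, was 6.36 against 21.9, 3.64, 2.24, 1.38 and 3.36. Dpt was thus above every wild-type array, while Lox lay below WT with DMBA and above the rest. Of 19 endothelial genes 2 rose and 4 fell, with a median of -0.25 and of 1.42 to 2.61 against the others. Kdr, VEGF receptor 2, was 23.6 against 9.65, and Vwf, von Willebrand factor, 11.9 against 3.90, whereas Pecam1, CD31, was 1.88 against 5.40 and Emcn, endomucin, 3.97 against 13.6.

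Macrophage genes had the lowest median of the 33 lists against WT with DMBA, but not against the other wild-type arrays. Of 16 measured 14 fell and none rose, with a median of -2.15; against the other 4 wild-type arrays it was -0.42 to 1.79, and 3 of 13 lay below the wild-type range. Lyz2, lysozyme, was 38.8 on the αERKO array against 219, 89.4, 48.2, 11.3 and 12.8. C1qc, a complement component, was 19.8 against 117, 13.7, 1.66, 1.09 and 1.15. Mrc1, the mannose receptor, was 2.87 against 18.1, 2.22, 0.92, 0.302 and 0.339. Each was highest in WT with DMBA, and for C1qc and Mrc1 the αERKO value was above the other 4 arrays. Msr1, a scavenger receptor, was 1.54 against 1.66 to 17.7, below every wild-type array.

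Lymphocyte genes rose in most measured cases, and by a similar amount whichever wild-type array was the reference. Of 11 measured 6 rose and none fell, with a median of 2.09 and of 2.06 to 2.44 against the other 4 arrays, and 8 more were good on the αERKO array and near background in WT with DMBA. Cd3d, a T cell receptor subunit, was 11.2 on the αERKO array against 0.426, 0.606, 0.717, 0.654 and 0.704. Cd2, a T cell adhesion molecule, was 19.5 against 1.20, 1.29, 1.25, 0.955 and 1.14, and Lck, the T cell kinase, 20.6 against 1.67, 2.06, 2.16, 1.43 and 2.06. None of the wild-type arrays reached the αERKO level of these 3. Cd3g was at least 79.0-fold higher than in WT with DMBA, Cd8b1 at least 39.1-fold, and the B cell gene Ms4a1 (CD20) at least 21.3-fold. Of the defining markers, Cd3e was near background on all 7 arrays, and Cd79a, a B cell receptor subunit, was 9.86 against 9.02. The summed level of the list was 143 against 19.9 to 27.6.

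Genes of lymph node stroma and of antigen presentation were high on the same array; both lists were made after values were seen and are given as a description. Ccl19 and Ccl21a, chemokines that draw T cells into lymph nodes, were 68.3 against 0.435 to 1.05 and 15.3 against 1.55 to 2.06. Cr2, complement receptor 2 of B cells and follicular dendritic cells, was 8.13 against 0.549 to 0.948, and Glycam1, given above, is the L-selectin ligand of lymph node venules. Of 8 measured lymph node genes 6 rose, and of 8 measured class II genes all 8 rose. H2-Aa, a class II chain, was 97.5 on the αERKO array against 4.22, 0.869, 0.168, 0.762 and 0.334, and Cd74, the invariant chain, 34.8 against 1.83, 0.0955, 0.181, 0.65 and 0.319. The part that lymph node tissue in the pool played in these values was not tested. Interferon-responsive genes rose in 10 of 21 cases and fell in 2, with a median of 0.80 and of 1.65 to 2.27 against the others. The 2 that fell were Cxcl10, a chemokine, and Oasl1, with log2 ratios of -1.32 and -1.05, and Isg15 was at 0.15. Irf7, an interferon regulatory factor, was 49.7 against 13.8, 7.15, 6.23, 6.53 and 6.59, Ifit3, an antiviral effector, 10.8 against 1.73, 0.42, 0.193, 0.0528 and 0.23, and Cxcl9, a T cell chemokine induced by interferon γ, 17.2 against 0.972, 0.345, 0.391, 0.157 and 0.279.

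Red cell transcripts were also present. Hba-a1, an α-globin, was 576 on the αERKO array against 36.3, 8.10, 4.69, 2.89 and 2.25. Alas2, the erythroid heme synthase, was 5.82 against 1.15, 1.16, 0.978, 0.718 and 1.03. Both were above every wild-type array, while the other 4 measured erythroid genes did not pass 2-fold.

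**Figure D4:**
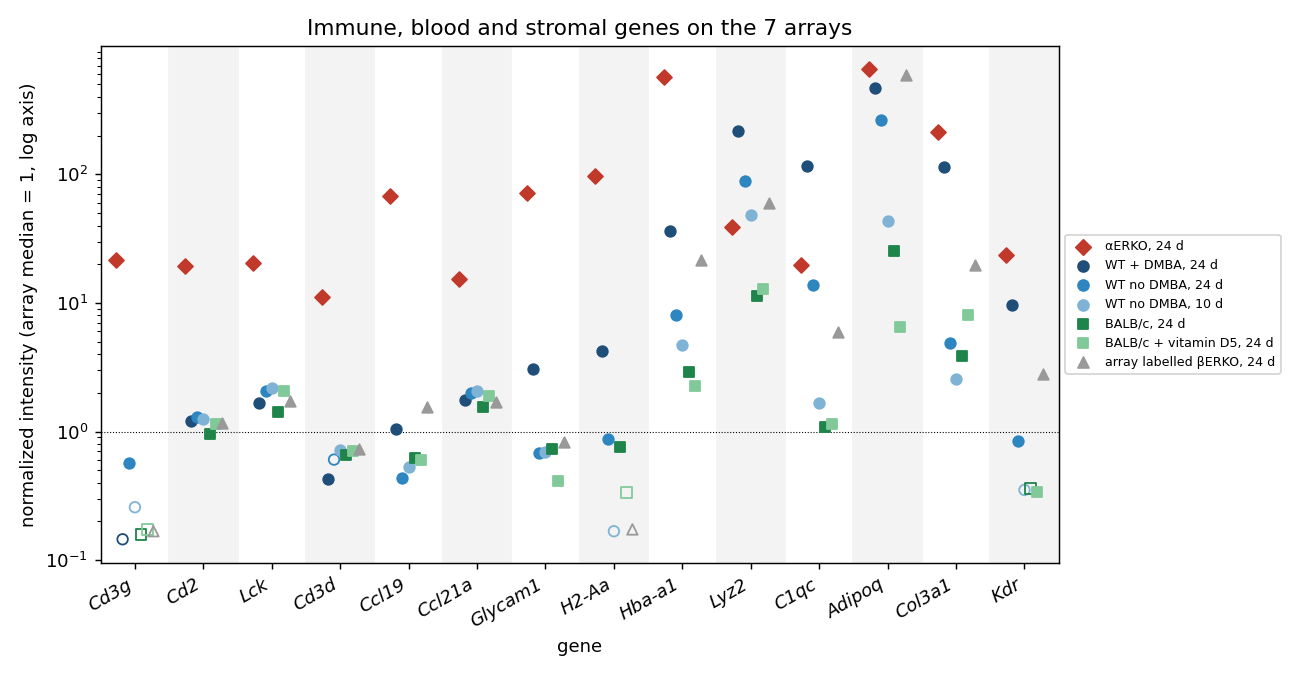
Normalized intensity (vertical, log axis, array median = 1) of immune, blood and stromal genes on the 7 arrays; each point is 1 array, and open points were not called good. The αERKO point stands above all wild-type points for the T cell, lymph node, class II and globin genes (Cd2 19.5 against 0.955 to 1.29), whereas for Lyz2 and C1qc the WT array with DMBA is highest.

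The largest single differences were read beside the βERKO-labelled array, since it shares the strain background of the αERKO array. With muscle genes left out, 1049 genes fell and 462 rose by more than 2-fold while outside the wild-type range. Of the 12 largest falls, 4 were below the wild-type range on that array too, 6 lay within it and 2 above it. The share of all genes outside the range on the βERKO-labelled array was not counted. These counts therefore have no background and are a description only. Hspe1, a mitochondrial chaperonin, was 3.04 for αERKO, 4.70 on the βERKO-labelled array and 187 to 260.2 on the wild-type arrays. Esrp1 was 1.78, 2.46 and 53.5 to 120.2, and Cap1, an actin-binding protein, 0.82, 5.66 and 18.6 to 41.7. Csn1s1 was also below the range on the βERKO-labelled array, with a log2 ratio of -3.55 to WT with DMBA. For these genes the low value goes with the C57BL6/129SV background as well as with the αERKO genotype, and these cannot be told apart. Cdkn1a and Gdf15 behaved otherwise, at 365 and 131 on the βERKO-labelled array, above every wild-type array, although its Cdkn1a spot was not called good. The other large falls were Ms4a6d, a macrophage membrane protein (1.86 against 63.2), and Prl2c3, a prolactin family member (0.851 against 29.8).

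Of the 12 largest rises, 8 were above the wild-type range on the βERKO-labelled array as well, again with no share over all genes to set beside it. Rps9, a ribosomal protein, was 275 on the αERKO array, 360.0 on that array and 10.5 to 12.7 on the wild-type arrays. Ly6d, a Ly6 family surface protein, was 159, 145 and at most 29.2, and Chchd4, a mitochondrial import protein, 7.96, 12.9 and 0.331 to 0.883. These 3 were high on both knockout arrays. Retnla, a resistin-like protein of fat and alternatively activated macrophages, was 219 for αERKO, 3.22 on the βERKO-labelled array and 1.59 to 2.97 on the wild-type arrays. Inmt, a methyltransferase, was 70.7, 1.55 and 0.57 to 0.975, and Fabp3, the fatty acid-binding protein of muscle and brown fat, 38.3, 1.18 and 0.46 to 1.99. The remaining large rises were 1700030K09Rik, Fam25c, H2-Q10 and Vnn3, with log2 ratios of 6.62, 5.68, 5.24 and 4.81. Fam25c and H2-Q10 were above the wild-type range on the βERKO-labelled array too, with log2 ratios to WT with DMBA of 4.08 and 3.02. There 1700030K09Rik and Vnn3 lay within the range.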

How the data were processed

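Intensities were deposited by the authors as CodeLink Expression Analysis output, per the file headers: a spot's intensity is the mean of its pixels after the median local background was subtracted, and each spot carries a quality call. The labels name GeneSpring GX 7.3 for the study's own analysis. Gene probes were divided by their array's median, as in the study's methods, log2 ratios were taken of probes good on both arrays, and counts past 2-fold were made; with 1 array per group no test was possible and no p-value is given. Genes near background on 1 array have a bound, taken against that array's lowest good value or the probe's own value, whichever was higher. Of 15553 probes with a RefSeq accession 14763 matched RefSeq's mouse table (GRCm38.p6), to 13971 symbols; a gene is given by its brightest probe. Between probes of the same accession the SD of the log2 ratio was 0.61 over 524 pairs, which covers neither pools nor hybridizations. The number of arrays limits the precision.

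The members and the 33 gene lists were chosen with earlier results of these data known. Genes named are Esr1, Esr2, Pgr, Gper1, Greb1 and Areg; the 12 largest falls and 12 largest rises outside the wild-type range, muscle list left out; and of each list the first 3 genes and up to 5 with the largest log2 ratio. Cited1, Gata3, Foxa1, Cfb, Gstt1, Ddit4l, Txnrd1, the lymph node and class II genes, and genes given by a bound other than Esr1, Csn2, Saa1, Saa2, Mdm2 and Fosl1 were chosen after their values were seen, as were some of the genes drawn in plots. One gene that this rule takes is not reported here. Genes with a value on 1 array only enter no median. Alternatives were quantile normalization, the 75th percentile, cyclic loess and normexp (limma 3.58.1, R 4.3.3), the deposited normalized intensities, other filters and thresholds, and other wild-type references. Counting was tested on simulated data. Python 3.11.15, pandas 2.3.3 and matplotlib 3.10.9 were used. The deposited series table of normalized values was not used here.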

Additional observations from a re-analysis of the deposited data

How the results depend on the processing

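With 1 array per group, the number of arrays and the dim probes limit the precision. Counts of higher and lower probes were 804 and 813 at 3-fold, 3584 and 4509 at 1.5-fold, 3246 and 3923 with probes good on either array, and 5225 and 5124 over all gene probes. With normexp 781 were higher, and against WT at 24 days without DMBA 3648 were lower. Over all gene probes 8189 lay above and 11479 below the wild-type range. Under the other alternatives these counts stayed within 1.5 times. Under quantile normalization, the 75th percentile, cyclic loess and the deposited normalized intensities, all 33 list medians and 216 named genes moved by less than the spread between probes of the same accession. Normexp moved 61 of the 216 genes by more than that spread and reversed none. Which wild-type array was the reference mattered most. Against WT at 24 days without DMBA, the median log2 ratio was -2.22 for luminal epithelium, 0.82 for basement membrane, 1.79 for adipocyte, 2.70 for fibroblast, 1.42 for endothelium, 1.46 for smooth muscle, -0.42 for macrophage, 0.97 for Schwann cell and nerve, 1.65 for interferon response, -2.48 for aryl hydrocarbon receptor and phase II, -1.47 for heat shock and 0.37 for metalloproteinases. Against the median of the 5 wild-type arrays, the median log2 ratio was -1.78 for luminal epithelium, -0.56 for squamous differentiation, 1.12 for basement membrane, 3.06 for adipocyte, -0.036 for brown adipocyte, 2.71 for fibroblast, 2.30 for endothelium, 1.92 for smooth muscle, -0.13 for macrophage, -0.85 for neutrophil, 1.11 for Schwann cell and nerve, -1.09 for proliferation, 1.60 for interferon response and -3.05 for aryl hydrocarbon receptor and phase II. With genes good on either array, the median log2 ratio was -1.65 for milk and secretory differentiation, 3.01 for T and B lymphocyte, -1.62 for acute-phase and inflammatory and 2.70 for skeletal muscle. With normexp, the median log2 ratio was 1.18 for T and B lymphocyte and 1.21 for skeletal muscle. Over each wild-type array in turn (added after seeing the data), the lowest median was -2.22 for luminal epithelium, -2.25 for basal epithelium, -1.58 for squamous differentiation, -0.21 for brown adipocyte, -1.39 for neutrophil, -0.58 for cartilage and bone, -2.11 for proliferation, -3.25 for aryl hydrocarbon receptor and phase II, -1.47 for heat shock and -1.32 for hypoxia and glycolysis. The highest over these arrays was -0.19 for milk and secretory differentiation, 1.17 for basement membrane, 4.00 for adipocyte, 1.14 for fatty acid synthesis, 2.81 for fibroblast, 2.61 for endothelium, 1.69 for smooth muscle, 1.79 for macrophage, 1.35 for mast cell, 0.98 for Schwann cell and nerve, 2.27 for interferon response and 0.37 for metalloproteinases. Against WT at 24 days without DMBA, these named genes changed sign: Col4a2 (0.61), Lox (0.80), Pecam1 (0.92), Emcn (0.084), Cldn5 (0.67), Rasip1 (0.68), Acta2 (0.27), Mrc1 (0.37), C1qc (0.53), Egr2 (0.19), Vegfa (-0.95), Mmp2 (1.55) and Mmp3 (1.27). Against the median of the 5 wild-type arrays, these named genes changed sign: Klk8 (-0.51), Col4a2 (1.99), Gpd1 (1.33), Lox (0.92), Pecam1 (1.38), Emcn (2.37), Cldn5 (2.67), C1qc (3.57), Ltf (-0.40), Egr2 (0.16), Vegfa (-0.83) and Mmp2 (0.89). The cause of these shifts was not tested. No paired analysis was possible because each group has 1 array.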

Other observations

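Some gene groups in these 2 arrays are not described above. Of 17 measured genes of fatty acid and triglyceride synthesis 4 rose and 3 fell, with a median log2 ratio of 0.40, and 11 lay above the wild-type range. Elovl6, a fatty acid elongase, was 205 on the αERKO array against 31.6 to 61.8, and Fasn, fatty acid synthase, 338 against 19.7 to 123, although a further Fasn probe had a log2 ratio of -0.01. Scd2, a desaturase, was 9.16 against 17.2 to 47.9, below every wild-type array. Of 9 brown adipocyte genes 4 rose and 1 fell, with a median of 0.81, which was 0.20 without genes that are also on the muscle list. Ucp1, the thermogenic uncoupling protein, was 4.00 against 0.392, and Cidea, a lipid droplet protein of brown fat, 9.65 against 8.37.

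Nerve, mast cell and pericyte genes gave smaller shifts against WT with DMBA, but their medians depended on the wild-type array. Against the others they were 0.80 to 0.98 for nerve, 0.64 to 1.35 for mast cell and 1.03 to 1.69 for smooth muscle and pericyte. Basement membrane gave 0.82 to 1.17 there and squamous differentiation -1.58 to -0.33. The counts and medians below are against WT with DMBA. Of Schwann cell and nerve genes 3 of 12 rose and 1 fell (median 0.11); S100b was 10.99 against 0.791 to 1.76 and Prx, periaxin of myelin, 16.6 against 5.06 to 8.05. Of mast cell genes 1 of 9 rose and 1 fell (median 0.16). Of smooth muscle and pericyte genes 1 of 12 rose and 1 fell (median -0.16): Rgs5, a pericyte gene, was 4.38 against 0.757 and Acta2, smooth muscle actin, 34.3 against 103. Of neutrophil genes 2 of 10 rose and 3 fell (median -0.04), with S100a8 at 4.54 against 9.43 to 52.3. Of basement membrane genes 3 of 14 rose and 2 fell (median -0.10), and Lama1, a laminin chain, was at least 10.1-fold lower, being near background in αERKO. Of squamous differentiation genes 4 of 13 rose and 2 fell (median 0.24); of cartilage and bone genes none of 9 rose and 3 fell (median 0.16).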
